A study of Mus musculus with 4 samples.

Results

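The barcodes described here are droplets of an epigonadal fat library that carried stromal fibroblast RNA and received no cell label from the authors. Single-nucleus RNA was measured in 1 library from epigonadal white fat of naïve wild-type male mice aged 4 months. A second library came from 6 pooled thymi of naïve wild-type C57/BL6 males of the same age, kept on standard chow. In both, tissue was digested with DNase I and Collagenase II, nuclei came from the buoyant fat-cell fraction, per the labels' protocols, which word these steps for the thymus. How many mice gave the epigonadal fat is not stated in the labels used. No group carried a transgene, deletion or drug treatment in the labels.

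Fat tissue holds, beside its adipocytes, a stroma of fibroblasts that express the receptor Pdgfra and lay down fibrillar collagen, proteoglycans and elastic fibres. Some of these fibroblasts are progenitors of adipocytes. In mouse epigonadal fat a Dpp4- and Pi16-expressing progenitor state and a more committed preadipocyte state with Pparg, Fabp4 and Cd36 have been distinguished, and the depot is also covered by a mesothelium, a sheet of lining cells that express Wt1, Msln and Muc16. Buoyant adipocytes are collected away from most stromal cells, so stromal nuclei are a minor content of such a preparation.

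Members were chosen by their own RNA. An unlabelled epigonadal barcode was taken if under 20% of its UMIs (unique molecular identifiers, each standing for 1 captured RNA molecule) were mitochondrial, if it had a UMI of at least 3 of the 8 stromal genes Pdgfra, Dcn, Col1a1, Col3a1, Dpp4, Pi16, Fbn1 and Col15a1, and if it had UMIs of fewer than 3 of the 8 macrophage genes Mrc1, Adgre1, F13a1, Csf1r, Cd163, Mertk, Dock2 and Ptprc. This gave 186 members of 2919 unlabelled barcodes under that limit, or 6.37% (95% Clopper-Pearson interval 5.51 to 7.32), and 3.69% of all 5043 epigonadal barcodes. They held 5.12% of the library's 6504841 UMIs. The members were compared with the other 2733 unlabelled barcodes under the limit and with the 1564 nuclei that the authors had labelled as adipocyte classes, Ad IIa to Ad IIc and Ad Ia to Ad Ib. All intervals below are at 95% and cover counting error only, and with 1 library there was no replicate check and no p-value.

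Members were deeper than the barcodes around them. They held a median of 1348.5 UMIs (512 to 19871), against 793 in the other unlabelled barcodes and 966 in labelled nuclei. Their median mitochondrial share was 3.83%, against 9.88% and 5.19%. The summed nuclear-encoded UMIs were 319130 in members, 3089399 in the other unlabelled barcodes and 2157889 in labelled nuclei, and levels are scaled to these totals and given as counts per 1e6 (CPM). Of the members, 5 had a barcode sequence that also occurs in the thymic library. A doublet caller (Scrublet) marked 0 of the 5043 epigonadal barcodes and so gave no usable doublet calls.

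The 8 stromal genes of the rule describe the members without testing anything, because they chose them. Pdgfra, the receptor for platelet-derived growth factor A (ENSMUSG00000029231, GRCm38.p6 chromosome 5, 75151322 to 75198206), had 133 UMIs in members, 18 in the other unlabelled barcodes and 10 in labelled nuclei. Dcn, which encodes the collagen-binding proteoglycan decorin (ENSMUSG00000019929, chromosome 10, 97479500 to 97518163), had 768, 276 and 115, a level of 2407 CPM (2239 to 2583) in members. Col3a1 (ENSMUSG00000026043, chromosome 1, 45311538 to 45349706) and Col1a1 (ENSMUSG00000001506, chromosome 11, 94936224 to 94953042), chains of fibrillar collagen, had 895 and 447 UMIs in members. All 8 genes had a higher level in members than on either other side. Fbn1, the microfibril protein fibrillin-1, had 345 UMIs, and the progenitor genes Pi16 and Dpp4 had 157 and 103. Col15a1, a collagen beside basement membranes, had 76 UMIs in members and 138 and 146 in the other unlabelled barcodes and labelled nuclei, which gave the smallest log2 ratios of the 8, 2.42 and 1.82.

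The share of barcodes with a UMI differed between the rule genes. Dcn was seen in 81.7% of members (interval 75.4 to 87.0), in 7.76% of the other unlabelled barcodes, in 6.84% of labelled nuclei and in 12.6% of the 301 unlabelled barcodes with 3 or more of the macrophage genes, which should lack it. After each barcode was thinned to 500 UMIs, a number that every barcode reached, the 4 shares were 59.1%, 4.61%, 3.26% and 4.32%. Median depths were 1348.5, 793, 966 and 1083 UMIs. Thinning lowered all 4 shares, and members stayed highest. Dcn is a rule gene and members were chosen on the counts before thinning, so this order is no check of depth. Pdgfra was seen in 38.2% of members, 0.549% of the other unlabelled barcodes and 1.33% of the macrophage-marked ones. Dpp4, Pi16 and Col15a1 were seen in fewer, 46, 54 and 41 of the 186 members, and in 21, 35 and 19 after thinning.

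Members differed in how many stromal genes they had. Of the 186, 62 had UMIs of 3 stromal genes, 65 of 4, 32 of 5, 19 of 6, 6 of 7 and 2 of all 8. Just outside the rule were 141 barcodes with 2 stromal genes and fewer than 3 macrophage genes, at a median of 905 UMIs. Their 8 rule genes summed to 2017 CPM, against 4410 CPM in members with 3 stromal genes, 9212 with 4 and 13056 with 5 or more. The same 8 genes set these classes, so the rise in their sum follows from the grouping. Macrophage genes kept 9 further barcodes out, and among members 148 had none of the 8 macrophage genes, 27 had 1 and 11 had 2.

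The rule also took barcodes with markers of other cell types. With a list of 10 mesothelial markers, 21 of the 186 members (11.3%) had 3 or more, against 4 of the 2733 other unlabelled barcodes and 0 of the 1564 labelled nuclei, which allows a share of up to 0.192%. With a list of 13 endothelial markers, 10 members (5.38%) had 3 or more, against 516 of the other unlabelled barcodes (18.9%). No member met both. These 21 and 10 barcodes are called mesothelial-marked and endothelial-marked below, and the remaining 155 are given apart for the lists below where they are named. This division was made after the data were seen. The name stromal fibroblast is therefore used only for the 155, and the 186 are called members.

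Fibroblast genes outside the rule were higher in members. All 20 genes of a fibroblast list were at least 2-fold higher than in the other unlabelled barcodes (median log2 ratio 4.20, range 1.02 to 5.37), where 15.4% of 12695 genes compared were called higher, 23.1% were called lower, and the median of all genes was −0.08. Against labelled nuclei, 19 of 20 were called higher (median 4.70), where 16.2% of 11532 genes were called higher and 20.5% lower. Called means a log2 ratio of at least 1 or at most −1 among genes whose UMIs summed to 10 or more, computed with 0.5 UMI added to each sum. Since the same barcodes were chosen on related genes, these ratios describe the members and are no test of their identity. The list summed to 14120 CPM in members (13710 to 14538), 3017 in the other unlabelled barcodes and 1671 in the macrophage-marked ones.

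Col1a2, the partner chain of Col1a1 in type I collagen, had 667 UMIs in members, 438 in the other unlabelled barcodes and 177 in labelled nuclei, a log2 ratio of 3.88 (3.71 to 4.06) over the other unlabelled barcodes. It was detected in 80.6% of members and in 14.6% of macrophage-marked barcodes. Scara5, a scavenger receptor for ferritin, had 123, 40 and 6 UMIs, and its log2 ratio over labelled nuclei was 7.01 (5.95 to 8.59). Lama2, the laminin alpha-2 chain, had 255, 93 and 30, a log2 ratio of 4.73 (4.38 to 5.09) over the other unlabelled barcodes. Mfap5, a microfibril glycoprotein, had the highest ratio of the list, 5.37 (4.36 to 6.66), on 40 UMIs in 29 members. The least selective of the 20 were Ebf1 and Gsn. Ebf1, a transcription factor of the adipocyte lineage, was 2325 CPM in members, 1147 in the other unlabelled barcodes and 1992 in labelled nuclei, so it was not called against labelled nuclei (log2 ratio 0.22, 0.11 to 0.34). The whole list summed to 3017 CPM in the other unlabelled barcodes and 3596 in labelled nuclei, so Ebf1 was a large part of it in both. Gsn, the actin-severing protein gelsolin, had 1297 UMIs in members and a log2 ratio of 1.50 (1.41 to 1.59) over the other unlabelled barcodes.

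**Figure D1:**
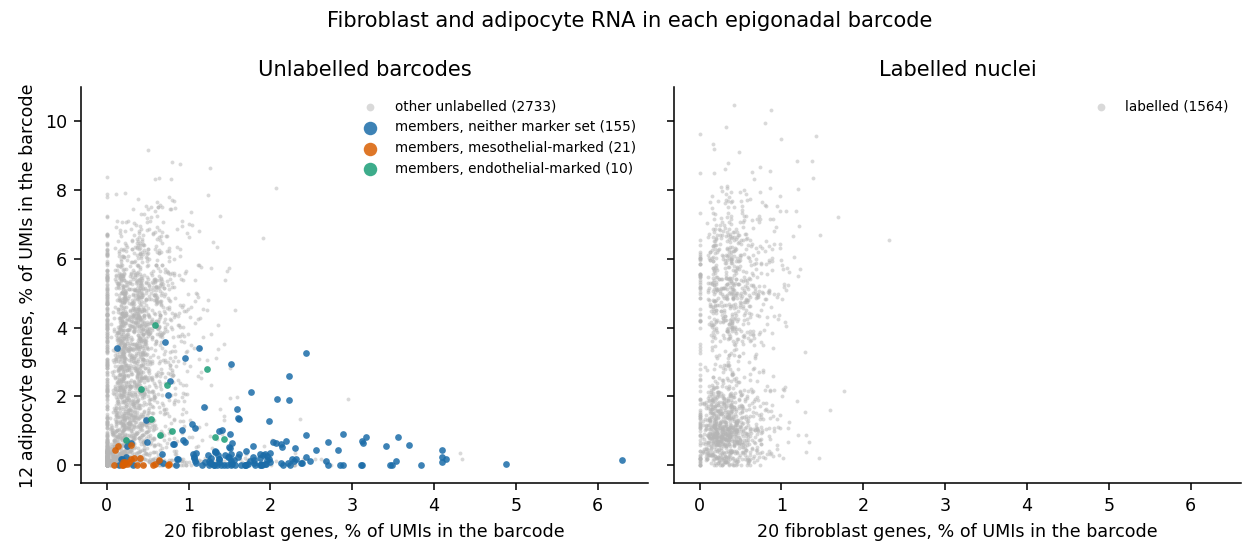
Each point is 1 epigonadal barcode, with the share of its nuclear-encoded UMIs in 20 fibroblast genes on the horizontal axis and in 12 adipocyte genes on the vertical axis, both in percent, for unlabelled barcodes (left) and labelled nuclei (right). The median fibroblast share was 1.62% in the 155 members with neither marker set, 0.292% in the 21 mesothelial-marked, 0.693% in the 10 endothelial-marked, 0.273% in the other unlabelled barcodes and 0.353% in labelled nuclei. The fibroblast list includes Ebf1, which adipocytes also express.

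The share of UMIs in the fibroblast list differed among members. Per barcode, the median share of UMIs in the fibroblast list was 1.50% over all 186 and 1.62% in the 155. It was 0.292% in the 21 mesothelial-marked members, close to the 0.273% of the other unlabelled barcodes. The list includes Ebf1, which adipocytes also express, so these shares do not measure fibroblast RNA alone. Adipocyte RNA was low in members, with a median share of 0.220% in 12 adipocyte genes, against 2.34% in the other unlabelled barcodes and 2.0% in labelled nuclei. In the macrophage-marked barcodes that share was 0.287%. The quartiles overlapped, at 0.0478% to 0.656% in members and 0.101% to 0.789% in macrophage-marked barcodes. The source of the adipocyte RNA in members was not tested.

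The matrix programme was broad. All 5 fibrillar collagen genes compared outside the rule were higher than in the other unlabelled barcodes (median 3.37) and than in labelled nuclei (median 4.67). Col5a2, a chain of the type V collagen that nucleates fibrils, had 255, 138 and 66 UMIs in members, other unlabelled barcodes and labelled nuclei, a log2 ratio of 4.16 (3.86 to 4.47) over the former. The lowest of the 5 were Col27a1 at 3.34 (2.39 to 4.30), on 21 UMIs, and Col5a1 and Col5a3, both at 3.37. Of 20 other collagen genes, 16 were higher and 1 lower than in the other unlabelled barcodes.

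Within these other collagens the network-forming chains of basement membrane split. Col4a6 had 31 UMIs in members and 4 in the other unlabelled barcodes (log2 ratio 6.08, 4.73 to 8.19), with 20 of the 31 in the mesothelial-marked members. Col14a1, which binds the surface of collagen fibrils, had 73 against 15 (5.52, 4.74 to 6.47). Col4a1, the ubiquitous type IV chain, was 649 CPM in members, 312 in the other unlabelled barcodes and 524 in labelled nuclei, and did not pass the fold against labelled nuclei (0.31, 0.09 to 0.52). Of 18 other collagen genes compared with labelled nuclei, 13 were higher, 3 passed the fold in neither direction and 2 were lower (median 3.68). At the low end against the other unlabelled barcodes Col28a1 was at −0.26 (−1.86 to 0.82), and Col7a1 had no UMI in members and 10 elsewhere among unlabelled barcodes. Col7a1 was the 1 collagen called lower there, and at the 3-count limit it was not lower.

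Basement membrane genes were mixed. Of 13 compared with the other unlabelled barcodes, 8 were higher and 2 lower, with a median of 1.33, and against labelled nuclei 6 of 12 were higher and 2 lower. Over all genes, 15.4% were called higher and 23.1% lower in the first comparison, and 16.2% and 20.5% in the second. Lama2 and Nid2, a nidogen that links laminin to type IV collagen, were highest, at 4.73 and 2.89 (2.09 to 3.67). Lama5 and Lama3, laminin alpha chains of epithelial and vascular membranes, were lowest, at −2.30 (−8.20 to −0.35) and −1.03 (−4.43 to 0.59), on 1 and 2 UMIs in members. Hspg2, the proteoglycan perlecan, missed the fold at 0.95 (0.70 to 1.20).

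Elastic fibre genes were higher in 12 of 15 cases and lower in none, with a median of 3.17 over the other unlabelled barcodes. Fbln1, an elastic fibre protein, had 27 UMIs against 13 (4.30, 3.33 to 5.41), and Efemp1 had 216 against 120 (4.12, 3.79 to 4.46). Efemp1 was concentrated in the mesothelial-marked members, which held 99 of its 216 UMIs. The lowest were Ltbp2 and Ltbp4, which tether latent transforming growth factor beta, at −0.09 (−6.03 to 2.07) and 0.33 (−0.37 to 0.92).

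Proteoglycans were higher in 6 of 7 cases (median 3.34). Lum and Ogn, small leucine-rich proteoglycans of the collagen fibril, had 68 and 105 UMIs in members and log2 ratios of 4.76 (4.09 to 5.51) and 4.49 (3.98 to 5.03). Prelp was lowest, at 0.74 (−0.01 to 1.37), and Podn followed at 1.85 (1.33 to 2.33). Genes that process collagen were higher in 12 of 14 cases (median 2.80). Pcolce2, an enhancer of the removal of collagen propeptides, had 43 UMIs against 10 (5.33, 4.36 to 6.54), and Loxl1, a crosslinking oxidase, 83 against 41 (4.28, 3.74 to 4.87). The lysyl hydroxylases Plod3 and Plod1, which act inside most secretory cells, were at 0.38 (−1.24 to 1.50) and 0.90 (−0.04 to 1.67).

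Matrix-degrading enzymes and their inhibitors were higher in 13 of 16 cases and lower in 1 (median 2.84). Adamtsl1, a secreted relative of the ADAMTS proteases without enzyme activity, had 348 UMIs in members, 91 in the other unlabelled barcodes and 18 in labelled nuclei, with 222 of the 348 in the 21 mesothelial-marked members. Mmp2, a gelatinase, had 50 against 17 (4.80, 4.01 to 5.72). Timp2, which inhibits metalloproteinases and helps to activate Mmp2, had 303, 234 and 43 UMIs, and Mmp14, the membrane protease that activates Mmp2, had 166, 128 and 50. Timp3 was not called (0.33, 0.05 to 0.59), and Mmp9, a protease of myeloid cells, had no UMI in members and 11 in the other unlabelled barcodes. Mmp9 was the 1 gene called lower, and at the 3-count limit it was not lower.

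**Figure D2:**
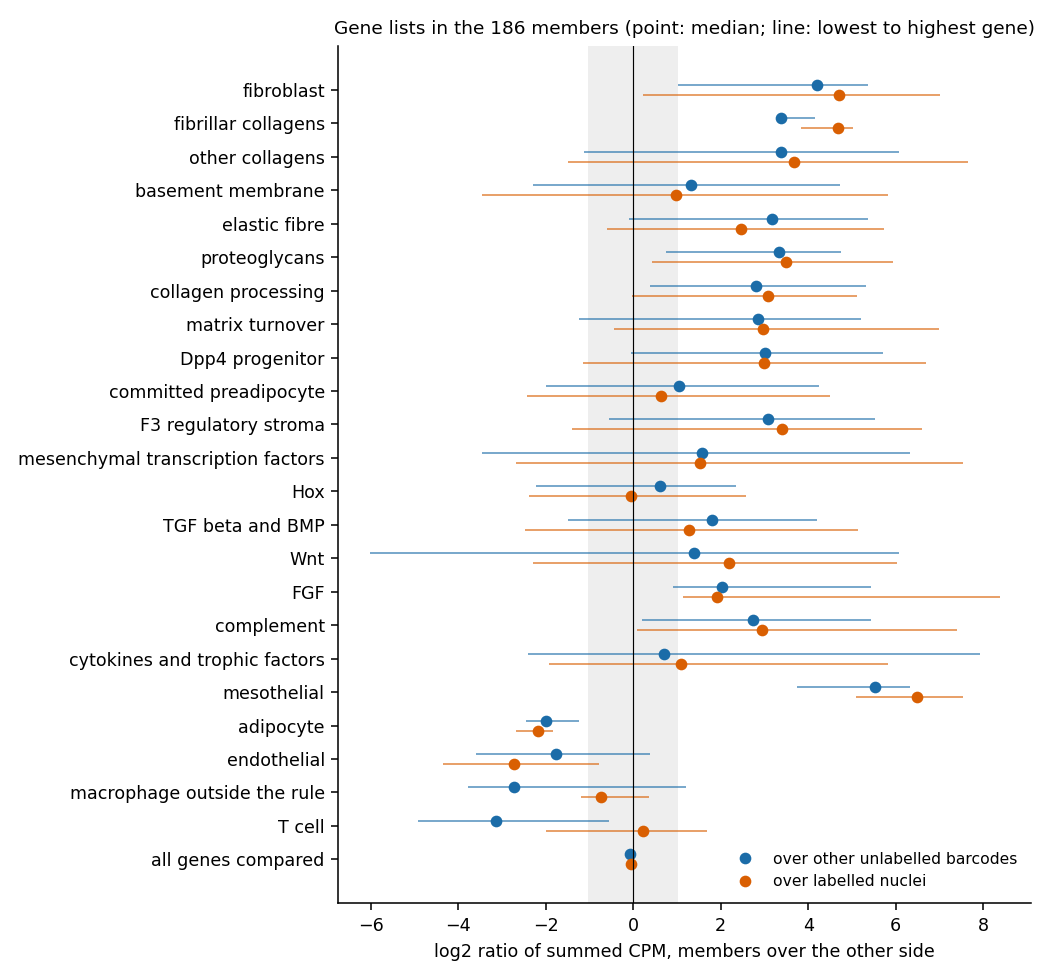
Median log2 ratio of each gene list (points) and its lowest and highest gene (lines), for members over the other unlabelled barcodes (blue) and over labelled nuclei (orange). Fibroblast genes had medians of 4.20 and 4.70, adipocyte genes −1.99 and −2.17, and all genes compared −0.08 and −0.05; the grey band marks ratios under 2-fold.

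Progenitor genes were higher in members as a group, and committed preadipocyte genes were not uniform. Of 15 genes of a Dpp4 progenitor list outside the rule, 12 were higher than in the other unlabelled barcodes and none lower (median 3.02). Of 15 committed preadipocyte genes, 8 were higher and 4 lower (median 1.06), and against labelled nuclei 7 were higher and 4 lower (median 0.64, or −0.47 among genes with at least 50 UMIs). The 4 lower genes were Pparg, the master regulator of adipocyte differentiation, Fabp4, a fatty acid carrier, Cd36, a fatty acid transporter, and Lpl, lipoprotein lipase. All 4 are also abundant in adipocytes.

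Opcml, a membrane-anchored cell adhesion protein (ENSMUSG00000062257, chromosome 9, 27790716 to 28925410), had 297 UMIs in 74 members, 55 in the other unlabelled barcodes and 22 in labelled nuclei. Its log2 ratios were 5.70 (5.29 to 6.15) and 6.48 (5.89 to 7.21). Gfpt2, which starts hexosamine synthesis (ENSMUSG00000020363, chromosome 11, 49794155 to 49838620), had 99, 19 and 6 UMIs and a log2 ratio of 5.63 (4.94 to 6.45) over the other unlabelled barcodes. Both stood far above the 2 comparison groups. Limch1 and Thy1 were the lowest of the list, at −0.05 (−0.48 to 0.32) and 0.13 (−1.48 to 1.24).

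Ebf2, a transcription factor of preadipocytes (ENSMUSG00000022053, chromosome 14, 67233292 to 67430952), had 333 UMIs in 105 members, 171 in the other unlabelled barcodes and 101 in labelled nuclei. Its log2 ratio was 4.23 (3.97 to 4.51) over the other unlabelled barcodes and 4.47 (4.15 to 4.81) over labelled nuclei. Its relative Ebf1, which adipocytes also express, did not separate members from labelled nuclei in this way. Apod, a lipid-carrying apolipoprotein, had 21 against 13 UMIs (3.95, 2.90 to 5.09). Pparg was 263 CPM in members, 699 in the other unlabelled barcodes and 1434 in labelled nuclei, and 47 of its 84 UMIs lay in the 10 endothelial-marked members.

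A list of genes of the F3-expressing regulatory stroma had 5 of 7 genes higher and none lower (median 3.08). Of all genes, 15.4% were called higher and 23.1% lower. Vit, an extracellular matrix protein, had 21 UMIs against 4 (5.53, 4.10 to 7.67), and Gdf10, a secreted factor of the bone morphogenetic protein family, 29 against 19 (3.87, 3.0 to 4.80). Steap4, a metalloreductase that adipocytes also make, and Igfbp3, a carrier of insulin-like growth factor, were at −0.56 (−1.27 to 0.02) and 0.95 (−1.64 to 2.56). F3 itself, tissue factor, had 20 UMIs in 17 members.

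Mesenchymal transcription factors were higher in 16 of 24 cases and lower in 2 (median 1.57), where 15.4% of all genes were called higher and 23.1% lower. Wt1 (ENSMUSG00000016458, chromosome 2, 105126529 to 105173614), a zinc-finger factor of the visceral mesothelium and stroma, had 95 UMIs in 32 members, 11 in the other unlabelled barcodes and 3 in labelled nuclei, a log2 ratio of 6.33 (5.48 to 7.44). Of these, 66 UMIs were in the mesothelial-marked members and 29 in the 155. Osr1, a zinc-finger factor of mesenchyme, had 34 against 6 (5.68, 4.51 to 7.32), and Prrx1, a homeobox factor of limb and trunk mesenchyme, 176 against 76 (4.48, 4.09 to 4.89). Runx1, a blood and immune regulator, was lowest, with 8 UMIs against 896 (−3.45, −4.75 to −2.55), and Meox1 had no UMI in members and 14 in the other unlabelled barcodes. Meox1 was not lower at the 3-count limit.

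Genes of the Hox clusters, which mark position along the body axis, had members on both sides of the fold. Of 19 compared with the other unlabelled barcodes, 7 were higher and 3 lower (median 0.61), where 15.4% of all genes were called higher and 23.1% lower. Against labelled nuclei 4 were higher and 5 lower (median −0.05), shares close to the 16.2% and 20.5% of all genes. Hoxc4 and Hoxa5 were highest, at 2.35 (1.28 to 3.31) and 1.32 (0.27 to 2.17), on 14 and 13 UMIs. Hoxd9 had no UMI in members and 22 in the other unlabelled barcodes, and Hoxd8 was at −2.13 (−8.03 to −0.17) on 1 UMI. Hoxd9 was not lower at the 3-count limit. Adipogenic factors had 3 of 9 genes higher and 2 lower (median 0.06), with Cebpa, an adipocyte regulator, at −2.39. Of 9 factors that restrain adipogenesis, 4 were higher and 2 lower. Zfp521, which binds and represses Ebf1, had 144 UMIs in members and 142 in the other unlabelled barcodes (3.30, 2.95 to 3.64).

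Signalling genes were called higher more often than lower in the lists for transforming growth factor beta, Wnt and FGF, read beside the 15.4% of all genes called higher and 23.1% called lower. In the PDGF family, Pdgfrb, the receptor also found on pericytes, had 35 UMIs in members against 85 (2.01, 1.38 to 2.58), while the ligand Pdgfb was lower (−1.68, −2.70 to −0.92), with 11 of its 12 UMIs in endothelial-marked members. Pdgfd was at 1.03 (0.73 to 1.30) and Pdgfa had no UMI in members against 24. Pdgfa was called lower, but was not lower at the 3-count limit. Of 24 genes of transforming growth factor beta and bone morphogenetic protein signalling, 15 were higher and 3 lower (median 1.80). Bmp4, a ligand, had 10 UMIs against 5 (4.21, 2.59 to 6.17), Fstl1, a secreted modulator, 148 against 87 (4.04, 3.65 to 4.44), and Bmper, a secreted binding protein, 92 against 66 (3.75, 3.28 to 4.23). The ligands Bmp6 and Tgfb1 were lower, at −1.18 (−1.75 to −0.70) and −1.45 (−3.02 to −0.41), and Bmp2 had no UMI in members against 13. Bmp2 was not lower at the 3-count limit.

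Wnt pathway genes were higher in 11 of 20 cases and lower in 2 (median 1.40, or −0.39 among genes with at least 50 UMIs). Dkk2, a secreted Wnt antagonist, had 24 UMIs in 12 members and 3 in the other unlabelled barcodes (6.08, 4.56 to 8.65), and Rspo1, a secreted Wnt amplifier, 17 against 3 (5.60, 3.99 to 8.19). The receptor Ror1 had 147, 169 and 18 UMIs in members, other unlabelled barcodes and labelled nuclei, a log2 ratio of 5.75 (5.08 to 6.58) over labelled nuclei. The frizzled receptor Fzd4 was at −0.99 (−1.79 to −0.34). Lef1, a Wnt-responsive factor of T cells, had no UMI in members and 313 in the other unlabelled barcodes, and was at least 10.8-fold lower, and Sfrp5, an adipocyte Wnt antagonist, had 0 and 10. Sfrp5 was called lower, but was not lower at the 3-count limit. Of 6 FGF genes, 4 were higher and none lower. Fgf7, a growth factor for epithelium, had 24 UMIs in 18 members, 5 in the other unlabelled barcodes and 0 in labelled nuclei, which made it at least 54.1-fold higher than the latter. Fgf1 had 51 against 62 UMIs (3.0, 2.43 to 3.55), with 44 of the 51 in mesothelial-marked members, and the receptors Fgfr1 and Fgfr2 just missed the fold at 0.98 and 0.91. Among Hedgehog genes, the effectors Gli2 and Gli3 were higher (4.86, 3.56 to 6.55, and 4.53, 3.99 to 5.11), the transducer Smo was at 1.81 (0.97 to 2.55) and the receptor Ptch1 at 0.04 (−1.21 to 0.96).

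Complement genes were higher in 6 of 9 cases and lower in none (median 2.74), where 15.4% of all genes were called higher and 23.1% lower. C7, a late component of the membrane attack complex, had 186 UMIs in 47 members, 41 in the other unlabelled barcodes and 7 in labelled nuclei (5.44, 4.96 to 5.98, over the former). Serping1, the C1 inhibitor, had 77 against 52 (3.84, 3.32 to 4.38), and C3, the central component, 320 against 383 (3.02, 2.80 to 3.23). C2 and C4b were not called, at 0.70 (−0.12 to 1.37) and 0.21 (−0.24 to 0.61). Of 24 cytokines and trophic factors, 11 were higher and 3 lower (median 0.69, or 1.09 with the 3 genes at 0 on 1 side set to the limit), and against labelled nuclei 11 of 22 were higher and 5 lower. Against labelled nuclei 16.2% of all genes were called higher and 20.5% lower. The share of lower cytokine genes was close to the latter. Il33, an alarmin kept in the nucleus, had 12 UMIs in 8 members and none in the other unlabelled barcodes, and was at least 38.7-fold higher. Fewer than 10 of the 12 lay in members with neither mesothelial nor endothelial marker set, so Il33 was not compared there. In those members the highest gene of the list was at 4.51. Vegfd, a lymphatic growth factor, had 47 against 27 (4.06, 3.36 to 4.81), and Csf1, the macrophage growth factor, 39 against 28 (3.75, 3.02 to 4.51). Il15 was lowest of those detected, at −1.85 (−3.91 to −0.63), and Nrg1 had no UMI in members against 25. Nrg1 was not lower at the 3-count limit. Cxcl12, a chemokine of stroma and endothelium, was at −0.80 (−1.43 to −0.27).

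Genes of other cell types set limits on what the members held. All 12 adipocyte genes were lower than in the other unlabelled barcodes, over a narrow range from −2.46 for Cidec, a lipid droplet protein, and −2.26 for Cfd, the adipokine adipsin, to −1.73 for Acsl1 and −1.24 for Adrb3. Fabp4 was detected in 78.5% of members and in 80.4% of macrophage-marked barcodes, and Adipoq in 21.0% and 17.9%. These shares do not separate the members from the macrophage-marked barcodes. At least 3 of the 12 adipocyte markers were present in 67 members (36.0%), against 75.3% of the other unlabelled barcodes and 91.9% of labelled nuclei.

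Macrophage genes outside the rule were lower in 11 of 12 cases and higher in 1 (median −2.71, or −1.89 with the 3 genes at 0 set to the 3-count limit), and the list summed to 100 CPM in members, 3220 in macrophage-marked barcodes and 153 in labelled nuclei. The rule itself removed barcodes with such genes. Cybb and Itgam, phagocyte genes, had 1 and 0 UMIs in members, and Cx3cr1, the exception, had 2. T cell genes were lower in 10 of 11 cases (median −3.13, or −1.99 with the 5 genes at 0 set to the limit), from Lck with no UMI to Cd3g with 2. Endothelial genes were lower in 12 of 13 cases (median −1.77). Erg and Tie1 had 2 and 3 UMIs in members, and Tek, an angiopoietin receptor, was not called (0.37, −0.12 to 0.81), with 30 of its 46 UMIs in the 155. Mesothelial genes were higher in all 8 cases compared (median 5.52), from Lrrn4 at 3.74 and Muc16 at 4.07 to Upk1b at 6.21 and Wt1 at 6.33.

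Schwann cell genes had a higher sum in members, at 357 CPM (295 to 429) and 418 in the 155, against 110 in the other unlabelled barcodes and 98.2 in labelled nuclei. Of 3 compared with the other unlabelled barcodes, 2 were higher and none lower in members (median 1.20). In the 155, 1 of the 3 was higher and 1 lower (median 0.97), where 16.4% of all genes were called higher and 25.4% lower. Scn7a, a sodium channel family member, gave 88 of the UMIs in members, in 31.7% of them, all in the 155, and Mbp, a myelin protein, gave 23, while Sox10, a defining transcription factor of Schwann cells, had none. Lymphatic endothelial genes summed to 116 CPM (81.6 to 160) in members and 32.4 in the other unlabelled barcodes, with 1 of 3 genes higher and 2 lower. Pdpn, podoplanin, which is also found outside lymphatic vessels, had 34 UMIs in members, Lyve1 had 1, and Flt4 and Mmrn1 had none. All 6 B cell genes were lower (median −1.61), mast cell genes had no UMI in members, and epithelial genes summed to 15.7 CPM in members and 18.5 in the other unlabelled barcodes.

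Red cell RNA lay mostly in 1 barcode. The deepest member had 19871 UMIs, against 6552 in the next, and carried 222 of the members' 244 Hbb-bs UMIs. It also held 12 of 13 endothelial and 11 of 12 adipocyte markers, and 5.97% of all the members' UMIs. The 4 haemoglobin genes, 2 of which (Hba-a1 and Hba-a2) are near-identical copies, had a median log2 ratio of 2.68 over labelled nuclei with this barcode and −0.22 without it. Against the other unlabelled barcodes all 4 were lower (median −2.62, and −5.41 in the 155), and the list summed to 1733 CPM in members and 11413 there. Of 5 myofibroblast genes 1 was higher and 1 lower (median −0.27), with Postn, a matricellular protein, at 34 against 141 UMIs and Tnc, tenascin C, at 0 against 39. Tnc did not pass the fold at the 3-count limit. The contractile genes Acta2, Tagln and Myl9 had 2, 1 and 2 UMIs in members and were not called. The list summed to 128 CPM in members (92.2 to 174), 169 in the 155 (120 to 232) and 89.7 in the other unlabelled barcodes (79.4 to 101). In the 155, 1 of the 5 was higher and 3 were lower (median −1.20, or 0.38 with the 2 genes at 0 set to the limit), where 16.4% of 12583 genes were called higher and 25.4% lower. Of 10 mural genes 2 were higher and 3 lower in members, and 2 and 6 in the 155 (median −1.28, or 0.43 with the 3 genes at 0 set to the limit). The list summed to 244 CPM in members (193 to 305), 236 in the 155 (177 to 308) and 254 in the other unlabelled barcodes (237 to 273). Of 12 immediate early genes, which respond to tissue handling among other stimuli, 2 were higher and 1 lower in members (median 0.56), a share of higher genes close to the 15.4% of all genes, and 3 and 0 against labelled nuclei. In the 155, 5 of the 12 were higher and 1 lower. The list summed to 686 CPM in members (598 to 783), 788 in the 155 (676 to 913) and 455 in the other unlabelled barcodes. Egr1, a transcription factor of this group, had 54 UMIs in the 155. Cell cycle genes were low in count. The list summed to 132 CPM in members (94.9 to 178), 110 in the other unlabelled barcodes and 21.8 in labelled nuclei, with 1 of 7 genes higher than in the former and 4 of 5 higher than in the latter (median 2.23). It stood at 315 CPM (218 to 441) in the 62 of the 155 with Dpp4 or Pi16 and 8.56 CPM (0.217 to 47.7) in the 93 without. Mki67, a marker of cycling cells, had 4 UMIs in 1 member, and Top2a, a topoisomerase of dividing cells, had 15 UMIs in 3 members, 14 of them in members with Dpp4 or Pi16.

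Fibroblast lists stood higher without the mesothelial- and endothelial-marked members. In the 155, the fibroblast list had a median log2 ratio of 4.50 over the other unlabelled barcodes and the fibrillar collagens 3.85. The endothelial median went from −1.77 to −4.42, or to −3.53 with the 5 genes at 0 set to the limit, and the mesothelial median from 5.52 over 8 genes to 3.09 over 5. Both lists were used to leave barcodes out of the 155, so these 2 moves are descriptions of that choice. The adipocyte median went from −1.99 to −2.25.

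The genes that ranked highest in members, among those with at least 50 UMIs and 50 CPM, came partly from the mesothelial-marked barcodes. The 25 genes ran from Wt1 at 6.33 to Nova1, a neuronal and stromal splicing regulator, at 5.0 (4.54 to 5.52). Nlgn1, a synaptic adhesion protein, came after Wt1 and Plcxd3 with 88 UMIs against 11 (6.22, 5.37 to 7.33), and 70 of the 88 were in the 21 mesothelial-marked members. Pkhd1l1 had 50 of 55 and Il1rapl1, a synaptic adhesion receptor, 108 of 113 there. By contrast, the 155 held 97 of 99 Gfpt2 UMIs, 98 of 99 of Sult1e1, an oestrogen sulfotransferase, and 274 of 297 of Opcml. Itgbl1, an integrin-like secreted protein, had 89 UMIs against 13 (6.00, 5.20 to 7.01), and Gpc3, a glypican, 57 against 9 (5.87, 4.91 to 7.14). The top 25 joined fibroblast and mesothelial genes.

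**Figure D3:**
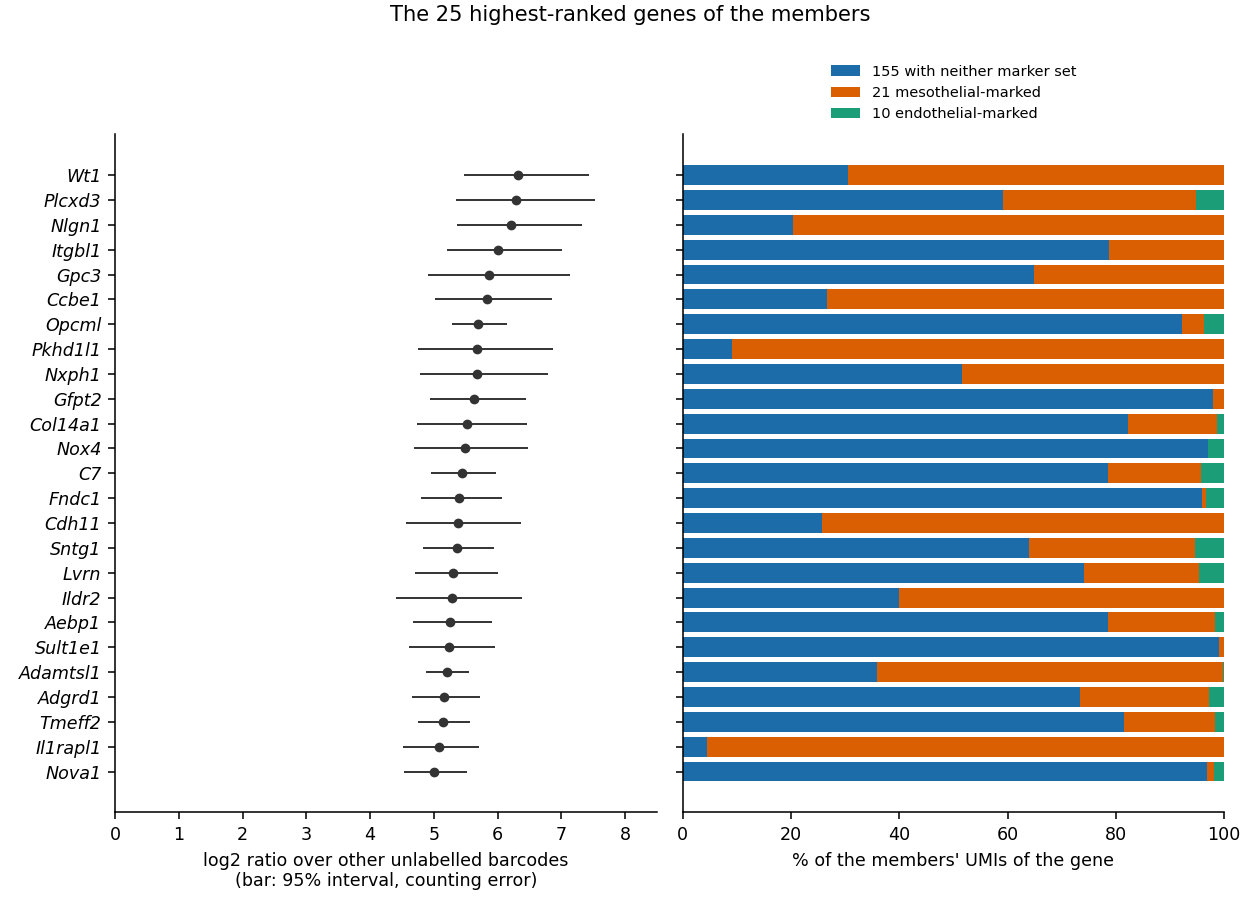
Left, the log2 ratio of the 25 highest-ranked genes over the other unlabelled barcodes with 95% counting intervals. Right, the percent of each gene's UMIs in members that lay in the 155 with neither marker set, the 21 mesothelial-marked and the 10 endothelial-marked members. Il1rapl1, with 108 of 113 UMIs in mesothelial-marked members, and Sult1e1, with 98 of 99 in the 155, mark the extremes.

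At the other end, the 10 lowest genes had no UMI in any of the 186 members. They included Lef1, Il7r, Ptpn22, Coro1a, Ly86, Aoah and Ccr2, genes of lymphocytes, monocytes and other blood cells. The rule had kept out barcodes with 3 or more of its 8 macrophage genes. Low monocyte RNA in members thus follows in part from that choice, and its part in the lymphocyte genes was not tested. Without a UMI in members, these genes entered the ranking only by their level in the other unlabelled barcodes. Il7r, the interleukin-7 receptor, had 273 UMIs in the other unlabelled barcodes and was at least 9.40-fold lower in members, and Ccr2, a monocyte chemokine receptor, had 181 and was at least 6.23-fold lower.

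Among the 155, members with and without progenitor genes differed in more than those genes. Dpp4 or Pi16 UMIs were present in 62, and 93 had neither. The 62 were deeper (median 1352.5 against 1044 UMIs), so detection of 2 low genes and depth moved together, and the part of depth in the differences was not tested. Of 12 further Dpp4 progenitor genes compared, 11 were higher in the 62 and none lower (median log2 ratio 2.0), where 12.9% of 4089 genes were called higher, 9.29% were called lower, and the median of all genes was 0.12. Of 14 committed preadipocyte genes, 1 was higher and 11 were lower (median −1.84).

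Opcml was 1957 CPM (1701 to 2239) in the 62 and 539 (414 to 690) in the 93. Creb5, a transcription factor, had 144 against 31 UMIs (log2 ratio 2.31, 1.76 to 2.94), and Sema3c, a secreted guidance protein, 95 against 17 (2.56, 1.84 to 3.44). Anxa3, an annexin, had 41 against 4, and Cd55, which protects cells from complement, 34 against 4. The intervals of these 5 progenitor genes all lie above a 2-fold difference. Fn1, fibronectin, had 97 against 19 (2.44, 1.75 to 3.26). Timp2 had 196 against 77 (1.46, 1.08 to 1.86).

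A ranking added after the data were seen took only genes with at least 30 UMIs in the 62 and left out rule genes. Its highest genes were Sema3e, a secreted semaphorin, with 33 UMIs against 1, Rgs6, a regulator of G-protein signalling, with 40 against 2, and Pcsk6, a proprotein convertase, with 31 against 2. Smpd3, a neutral sphingomyelinase, had 95 against 8 (3.61, 2.65 to 4.94), and Nav3, a microtubule-binding protein, 149 against 30 (2.41, 1.85 to 3.05). Wt1 was also on this side, with 27 against 2 UMIs (3.58, 1.88 to 6.99), although mesothelial-marked barcodes had been set aside. The progenitor side also held 9 Hoxc9 UMIs against none, at least 3.25-fold higher. The mesothelial list summed to 371 CPM in the 62 and 34.2 CPM in the 93, and its part in the difference was not tested.

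On the other side, most committed preadipocyte genes were higher in the 93. The list summed to 12381 CPM in the 93 and 5795 CPM in the 62. Adam12, a membrane protease, had 127 UMIs in the 93 and 22 in the 62 (−2.39, −3.14 to −1.75), Bmper 76 and 13 (−2.39, −3.40 to −1.57), and Pparg 34 and 3 (−3.19, −5.73 to −1.72). Col4a1 had 151 and 35 (−1.98, −2.57 to −1.45) and Col6a3, a chain of microfibrillar collagen, 173 and 46 (−1.78, −2.30 to −1.32). Cxcl14, a chemokine, had 18 UMIs in the 93 and none in the 62, which made it at least 5.54-fold lower in the latter. Fgf10, an adipogenic growth factor, had 24 and 3. By the added ranking, which took only genes with at least 30 UMIs in the 93, Pde11a, a phosphodiesterase, was lowest in the 62. It had 1 UMI against 54 (−5.07, −10.97 to −3.10), and Plin2, which coats small lipid droplets, followed with 2 against 34.

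Some genes did not follow this division. The fibroblast list had 4 genes higher and 2 lower of 20 (median 0.12), and summed to 18258 CPM in the 62 and 18276 in the 93. Lama2 was at −0.02 (−0.40 to 0.36) and Prrx1 at 0.37 (−0.08 to 0.82). Of the committed preadipocyte list, Ebf2 went with the progenitor side, with 222 UMIs in the 62 and 107 in the 93 (1.17, 0.83 to 1.52). Fibrillar collagens were lower in 2 of 5 cases in the 62 (median −0.96). Adipocyte genes were lower in 9 of 10 cases (median −1.25), and the list summed to 2420 CPM in the 62 and 5348 in the 93, against 5670 in macrophage-marked barcodes. Fabp4, Cd36, Lpl and Pparg are in adipocytes as well as in preadipocytes, so adipocyte RNA moved with the preadipocyte genes, and its part was not tested.

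**Figure D4:**
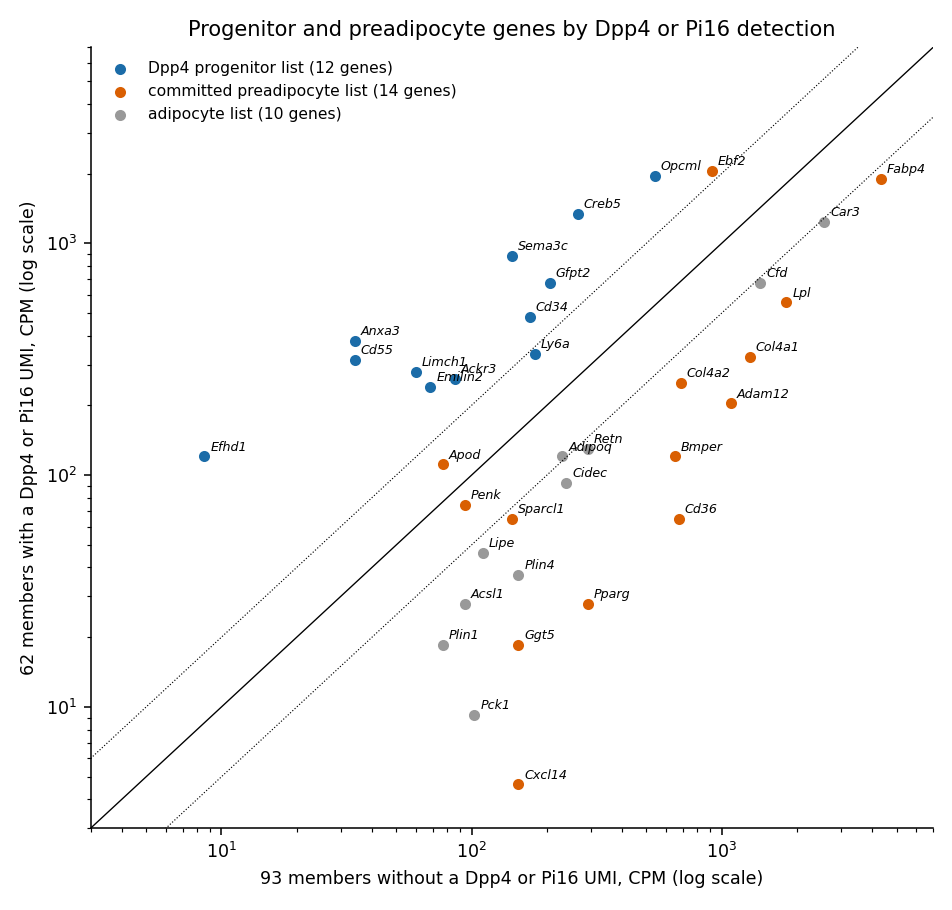
Level in CPM of progenitor (blue), committed preadipocyte (orange) and adipocyte (grey) genes in the 62 members with a Dpp4 or Pi16 UMI (vertical) and the 93 without (horizontal), both on log scales; the solid line is equality and the dotted lines a 2-fold difference. Opcml, at 1957 and 539 CPM, and Anxa3, at 380 and 34.2, lie above the lines, Adam12, at 204 and 1087 CPM, lies below, and Cxcl14, without a UMI in the 62, is drawn at 0.5 UMI.

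Members with and without Col15a1 were set side by side for matrix genes. Of the 93, 34 had a Col15a1 UMI and 59 had none of the 3 genes, while 4 of the 62 had Col15a1 together with Dpp4 or Pi16. Committed preadipocyte genes summed to 13331 CPM in the 34 (12334 to 14387) and to 11681 in the 59 (10878 to 12527), and fibroblast genes to 18695 and 17967 CPM. Matrix turnover genes summed to 7825 CPM (7066 to 8644) in the 34 and 5172 (4642 to 5745) in the 59, and fibrillar collagens outside the rule to 6232 (5556 to 6967) and 4473 (3982 to 5008). The intervals of the other 5 matrix lists overlapped. Lists outside the matrix also parted, with mesenchymal transcription factors at 12181 CPM (11229 to 13193) in the 34 and 10031 (9289 to 10817) in the 59. T cell genes were at 0 CPM (up to 74.4) and 178 (92.1 to 312). The share of all genes that part in this way was not computed. Elastic fibre genes were at 2037 CPM (1659 to 2475) and 1605 (1317 to 1938), proteoglycans at 1513 and 1144, and basement membrane genes at 3428 and 3626. Other collagens were at 5244 and 4874 CPM and collagen processing genes at 1976 and 1739. The median depths of the 34 and the 59 were 1422 and 947 UMIs, and the part of depth was not tested. The members also differed by number of rule genes. The fibroblast list summed to 8458 CPM with 3 rule genes, 13913 with 4 and 18977 with 5 or more, and the adipocyte list went from 7896 to 3836 and 2378 CPM, while median depth went from 1043 to 1346 and 1773 UMIs. Related stromal genes set these classes and depth rose with them, so the sums describe the grouping and test nothing. The class with 3 rule genes held the deepest member, with 19871 of its 104771 UMIs, and 10 mesothelial- and 5 endothelial-marked members, against 9 and 4 with 4 rule genes and 2 and 1 with 5 or more, and their part in these sums was not tested.

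Fibroblast genes were lower in the 21 mesothelial-marked members. Of the 20 fibroblast genes, none was higher and 17 were lower than in the 155 (median −2.55), where 17.3% of 4853 genes were called higher and 21.0% lower. The list summed to 3397 CPM in the 21, against 3017 in the other unlabelled barcodes. All 5 fibrillar collagens outside the rule were lower (median −3.18, or −2.21 with the 2 genes at 0 set to the limit). Of 14 committed preadipocyte genes 13 were lower (median −3.31, or −1.91 with the 8 genes at 0 set to the limit). These barcodes were deep, with a median of 2588 UMIs. Among the rule genes, Dcn, Col3a1 and Dpp4 had 138, 85 and 30 UMIs in the 21.

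Dcn did not differ beyond its interval, at 2634 CPM (2213 to 3111) in the 21, with a log2 ratio of −0.05 (−0.33 to 0.21). Dpp4 had 30 UMIs in the 21 (0.87, 0.19 to 1.49), and 15 of the 21 had a Dpp4 or Pi16 UMI, but Pi16 and Pdgfra had 1 UMI each. Col1a1 had 9 UMIs (−3.35, −4.56 to −2.48). Ebf2 had no UMI in the 21 against 329 in the 155 and was at least 25.6-fold lower, Adamts12, a matrix protease, at least 17.5-fold, and Fn1 at least 9.02-fold. Prrx1 had 1 UMI (−4.75, −10.65 to −2.84). Mesenchymal transcription factors were mixed, with 4 of 16 higher and 7 lower (median −0.61), and the list summed to 9332 CPM in the 21 and 11806 in the 155. On the higher side Gata6, a factor of visceral mesoderm and endoderm, had 20 UMIs in the 21 and 10 in the 155 (3.07, 1.94 to 4.36), and Osr1 17 and 15 (2.28, 1.19 to 3.39). Dcn and Dpp4 are among the genes that chose both sets.

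By the added ranking, Muc16, the surface mucin of mesothelium, led in the 21, with 22 UMIs against none in the 155, at least 31.4-fold higher; it is also 1 of the 10 markers that defined them. Genes that were no markers followed. Il1rapl1 had 108 UMIs in the 21 (2061 CPM, 1691 to 2488, log2 ratio 6.40, 5.27 to 8.19), Rbfox1, a splicing factor, 84 (5.80, 4.73 to 7.39), Sox6, a transcription factor, 94 (5.27, 4.39 to 6.44), and Fgf1 44 (5.12, 3.91 to 6.93). C3 had 84 UMIs in the 21 (0.62, 0.23 to 0.98), which was not called. In Fgf1, Sox6, Il1rapl1 and Rbfox1 the 21 barcodes stood far above the 155.

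The 10 endothelial-marked members had UMIs of the endothelial, adipocyte and fibroblast lists together. Their median depth was 2249 UMIs, and the deepest member gave 45.4% of their UMIs. Endothelial genes summed to 8046 CPM (7211 to 8951), against 254 CPM in the 155 and 7517 CPM in all labelled nuclei. These genes chose the 10 and left such barcodes out of the 155, so that gap follows from the grouping. By label the sum ran from 556 CPM in Ad IIc to 14146 CPM in Ad IIb. In the 10, the fibroblast list stood at 5308 CPM, adipocyte genes at 11949 CPM and committed preadipocyte genes at 22923 CPM. The mix was not particular to them. Nuclei labelled Ad IIa had 3113 CPM of fibroblast, 11122 of adipocyte, 26435 of committed preadipocyte and 10912 of endothelial genes. Whether these barcodes held more than 1 nucleus was not tested.

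Few labelled nuclei met the expression rule. They numbered 10 of 1564 (0.639%, 0.307 to 1.17), of which 6 were Ad IIa, 2 Ad Ib, 1 Ad IIc and 1 Ad Ia; no Ad IIb nucleus of 58 did, which allows a share of up to 5.17%. Fibroblast genes summed to 3113 CPM in Ad IIa, 3709 in Ad IIb, 4183 in Ad IIc, 5425 in Ad Ia and 3734 in Ad Ib, all below the 14120 CPM of members. These sums include Ebf1, which adipocytes also express. Dpp4 progenitor genes outside the rule ran from 219 CPM in Ad IIc to 1386 in Ad IIb, against 3710 in members. Mesothelial genes were at 0 to 41.8 CPM over the 5 labels, against 774 in members.

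The same rule applied to the thymic library found 35 of 929 unlabelled barcodes under the mitochondrial limit (3.77%, 2.64 to 5.20), and 0 of 365 labelled thymic nuclei, which allows a share of up to 0.822%. The 35 had a median of 1965 UMIs. They were set beside the 155, and tissue, library and depth cannot be told apart. The sets are also unlike in that marked barcodes were left out of the 155 and not of the 35, in which 2 had 3 or more mesothelial and 2 had 3 or more endothelial markers. Endothelial genes summed to 917 CPM in the 35 and 254 in the 155, and mesothelial genes to 612 and 196. Fibroblast genes summed to 17917 CPM in the 35 and 18267 in the 155. Pdgfra was 639 CPM (468 to 853) in the 35 and 574 (479 to 682) in the 155, and Dcn 2363 (2021 to 2746) and 2737 (2525 to 2962), but both genes chose the 2 sets. Of the 20 fibroblast genes, 3 were higher in the epigonadal barcodes and 4 lower (median 0.41, from −2.73 for Mgp to 1.52 for Col6a3), where 15.6% of 4975 genes were called higher and 10.9% lower.

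Progenitor genes were higher in the epigonadal barcodes. Of 12 Dpp4 progenitor genes compared, 11 were higher and none lower (median 1.62, or 1.45 with genes at 0 set to the 3-count limit). Opcml had 274 UMIs in the 155 and 21 in the 35 (log2 ratio 2.03, 1.42 to 2.78), and Cd55 had 38 and 0, at least 4.06-fold higher. Ebf2 had 329 and 39 (1.42, 0.95 to 1.95), and Mmp3, a matrix protease, 59 and 3 (2.44, 1.04 to 4.97). Positional genes differed too. Tbx15, a T-box factor of trunk mesenchyme, had 58 and 1 UMIs (3.64, 1.68 to 9.54), and Hoxc8 had 22 and 0, at least 2.35-fold higher. Of 7 Hox genes compared, 5 were higher and 1 lower, with a median of 2.88 that became 0.47 with the 4 genes without a thymic UMI set to their limit.

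The list of F3 regulatory stroma genes had the higher sum in the thymic barcodes. Of 6 compared, 3 were lower in the epigonadal barcodes and none higher (median −1.0), and the list summed to 1084 CPM in the 35 (857 to 1353) and 583 in the 155 (487 to 692). Matrix turnover had 6 of 14 genes higher in the epigonadal barcodes and 1 lower, and mesenchymal transcription factors had 3 of 18 higher and 4 lower. Of all genes compared, 15.6% were called higher and 10.9% lower, so the share of higher transcription factors was close to that of all genes. A ranking added after the data were seen took only genes with a minimum number of UMIs in the 35. Its first thymic gene was Mecom, a transcription factor that is also in the endothelial list, with 50 UMIs in the 35 and 6 in the 155 (−4.60, −6.22 to −3.48). Genes outside this ranking reached −6.85. Mgp, an inhibitor of matrix calcification, had 94 and 44 (−2.73, −3.29 to −2.21), Foxp2, a forkhead factor, 35 and 18 (−2.58, −3.51 to −1.74), and Abca8a, a lipid transporter, 123 and 118 (−1.70, −2.08 to −1.33). Without the 4 marked thymic barcodes, a setting added after the data were seen, 31 remained. Mecom then had 49 of the 58 UMIs of the endothelial list and stood at −4.72 (−6.33 to −3.59), Mgp at −2.85 (−3.41 to −2.32), Ebf2 at 1.27 (0.81 to 1.81) and Opcml at 2.03 (1.39 to 2.81). Of the 12 Dpp4 progenitor genes 10 were then higher (median 1.83), and the mesothelial sum was 154 CPM. Adipocyte genes were higher in the epigonadal barcodes in all 10 cases (median 3.39, or 1.79 with zeros at the limit). The list stood at 111 CPM in the 35 and 506 CPM in the other unlabelled thymic barcodes, and at 3943 CPM in the 155 and 19637 CPM in the other unlabelled epigonadal barcodes. In both libraries the level in these stromal barcodes lay below that of their surroundings, and the part of free adipocyte RNA was not tested.

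**Figure D5:**
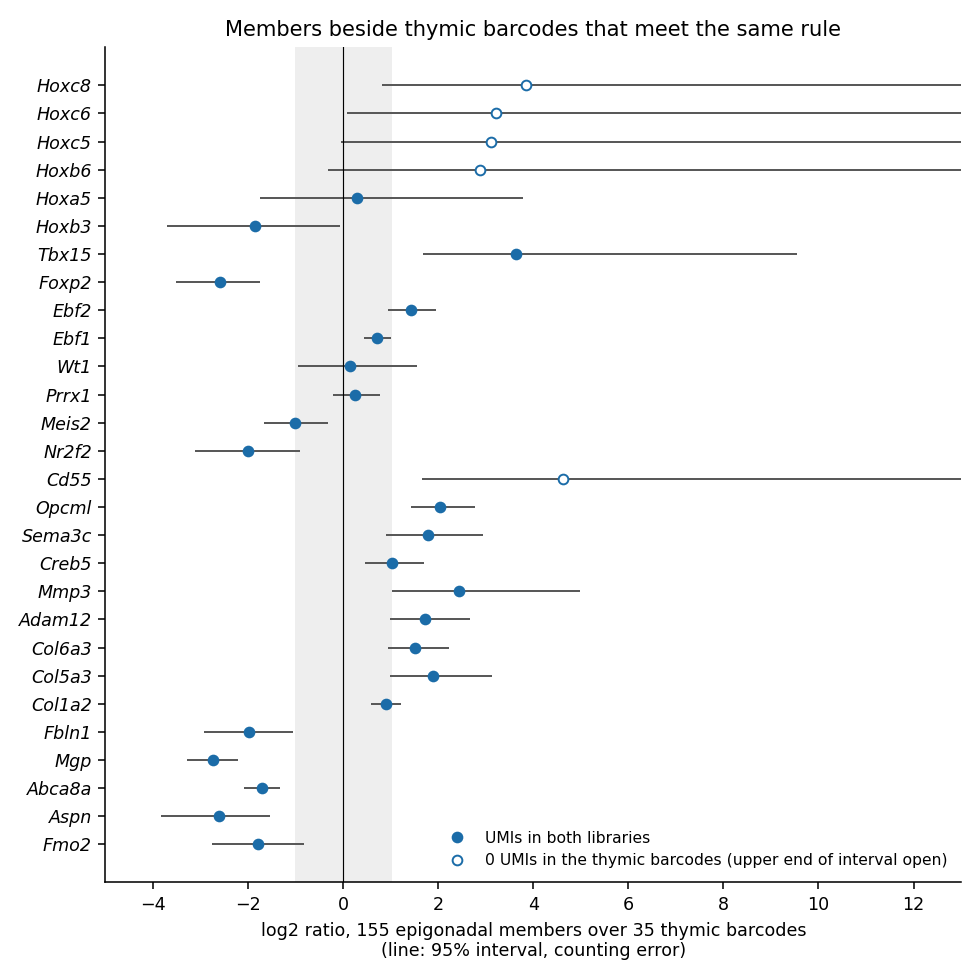
Log2 ratio of 28 genes in the 155 epigonadal members over the 35 thymic barcodes that meet the same rule, with 95% counting intervals; open circles have no UMI in the thymic barcodes, and the grey band marks ratios under 2-fold. Tbx15 (3.64), Opcml (2.03) and Ebf2 (1.42) lie on the epigonadal side, Foxp2 (−2.58) and Mgp (−2.73) on the thymic side, and Wt1 and Prrx1 near 0.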

How the data were processed

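Raw UMI counts per gene and barcode were deposited by the authors for both libraries, and the file headers name cellranger 7.2.0. The submitters' processing notes name mm10 and Seurat 5.1.0, and nothing used here states whether introns were counted. UMIs were summed over barcodes of a class and scaled to nuclear-encoded genes (CPM). Log2 ratios had 0.5 UMI added, exact binomial intervals, and a minimum of 10 UMIs. Levels had exact Poisson intervals and a count of 0 a limit of 3 counts over the class. Intervals cover counting error only. Alternatives varied the rule, minimum, added UMIs, scaling, thinning and comparison barcodes. The calculation was tested on simulated data. Members and the 40 gene lists were chosen with earlier results of these data known. Rule genes stayed out of list counts. The named genes were those of the rule and lists, the 25 highest and the 10 lowest, of which some are not reported here. Rankings within members and against the thymus, and the mesothelial and endothelial division, were added after the data were seen. These rankings took only genes with a minimum number of UMIs on their higher side. The 6-month multiome library was not used here. Python 3.11.15, numpy 2.4.6, scipy 1.17.1 and scanpy 1.11.5 were used. Gene positions are from RefSeq on GRCm38.p6.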

Additional observations from a re-analysis of the deposited data

Results flagged for a closer look

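A signal outside the main measurement was seen in the unlabelled epigonadal barcodes at or over the mitochondrial limit, which no comparison used. Of these 560 barcodes, 10 met the stromal and macrophage gene rule (1.79%, Clopper-Pearson 0.860 to 3.26). They had a median of 1050.5 UMIs and mitochondrial shares of 20.4 to 31.6%. Their 20 fibroblast genes summed to 14608 CPM on 155 UMIs, against 14120 CPM in members and 3017 CPM in the other unlabelled barcodes.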

How the results depend on the processing

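The fibroblast median stayed between 3.75 and 4.50 over the other unlabelled barcodes and between 4.19 and 5.08 over labelled nuclei in every alternative run. The number of members moved from 113 (mitochondrial share under 5%) to 327 (2 stromal genes). Genes called higher over the other unlabelled barcodes and over labelled nuclei numbered 4535 and 3596 with 5 UMIs added, 855 and 716 with a minimum of 50 UMIs, and 6037 and 6311 with no minimum. Genes called lower numbered 619 and 689 with 5 UMIs added, 1770 and 1498 with a minimum of 50, and 1713 and 1472 with 2 stromal genes. Adding 5 UMIs moved the median of all genes over labelled nuclei to 0.56. The mesothelial median over the other unlabelled barcodes became 3.46 with 4 stromal genes and 3.09 without mesothelial- and endothelial-marked members, a setting chosen, like leaving out the deepest member, after the data were seen. Reversals were the Wnt median over the other unlabelled barcodes, −0.39 with a minimum of 50, and the committed preadipocyte median over labelled nuclei, −0.47 with a minimum of 50 and −0.18 when thinned to 300 UMIs. The erythroid median over labelled nuclei became −0.40 with 4 stromal genes, −0.19 with fewer than 3 adipocyte markers, −0.18 with no macrophage genes and −0.22 without the deepest member, which held 222 of 244 Hbb-bs UMIs. The cause was not tested for the others. Of 2712 further recomputed values, 2382 stayed within the gene's counting interval, or for a list between the medians of its genes' interval bounds, and 323 moved beyond it. No paired analysis was possible because each group was 1 library and no test was run. Members at 1348.5 median UMIs give few UMIs of most regulators, so a gene at 0 is limited and not absent.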
